A study of Caenorhabditis elegans with 2 samples.

Results

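The regions described here are peaks of EGL-18 chromatin immunoprecipitation sequencing (ChIP-seq) in *Caenorhabditis elegans* that hold the consensus site of GATA factors, the core GATA with A or T before it and A or G after it, on either strand, within 75 bp of the summit. They were chosen from the ranked list of peaks deposited for both replicates together. Of its 117695 peaks, 2820 had a score of 540 or more, which is a global irreproducible discovery rate (IDR) of 5% or less, the expected share of irreproducible peaks among those ranked at least as high. Which inputs the IDR compared for this list is not known here, so the score is not taken as a comparison of the 2 replicates. Peaks that overlapped were joined, which gave 2717 regions, and a region took its summit and signal from the highest peak in it. A site was found at 483 regions, and 2234 regions of the same score had none. The rule used the score and the site, so that the share of regions with a site, their score and their signal are descriptions and were not tested.

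The worms were whole young adults of strain RW12252 (allele st12252, [egl-18::TY1::EGFP::3xFLAG], on chromosome IV), 63 hours old and grown from first-stage larvae that had been starved after bleaching to synchronise them. CRISPR had placed the tag, with green fluorescent protein (GFP), at *egl-18* on chromosome IV, and an antibody against GFP drew down the fusion protein with its DNA. Both samples, biological replicates 1 and 2, carried the tag, and the only group of the study is this one. No untagged or input library was analysed here. Peaks from whole animals do not tell in which cells the protein was on the DNA.

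GATA factors are zinc finger proteins that recognise this short site, which also occurs by chance in many places of a genome. EGL-18 works in the seam cells, the stem-like cells of the worm's epidermis, and in the vulva, while other members of the family specify the intestine and the rest of the epidermis. A consensus site below a peak is a match of letters and does not show that a given factor was bound to it.

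The summit windows of the 6 strongest regions with a site show how the sites were placed. They were read from the RefSeq WBcel235 genome, which is ce11, and sites are in capitals as they read on the strand given, so that a site on the other strand appears as its reverse complement.
429 bp downstream of the start of *K08F11.1*, chrIV:4725500-4725650, + strand: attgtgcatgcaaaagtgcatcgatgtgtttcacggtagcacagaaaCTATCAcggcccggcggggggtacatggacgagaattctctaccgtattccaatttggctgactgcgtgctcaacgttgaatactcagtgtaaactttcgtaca
*rpl-7A* and *set-21*, chrIV:4390570-4390720, + strand: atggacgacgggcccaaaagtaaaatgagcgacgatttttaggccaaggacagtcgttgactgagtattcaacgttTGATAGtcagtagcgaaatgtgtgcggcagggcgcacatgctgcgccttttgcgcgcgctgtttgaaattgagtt
intron of *mom-1*, chrX:6296531-6296681, + strand: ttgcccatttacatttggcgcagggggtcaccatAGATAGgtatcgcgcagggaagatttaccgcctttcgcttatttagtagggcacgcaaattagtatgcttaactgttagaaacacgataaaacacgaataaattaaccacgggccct
nearest to *F58D12.3*, chrV:14055157-14055307, + strand: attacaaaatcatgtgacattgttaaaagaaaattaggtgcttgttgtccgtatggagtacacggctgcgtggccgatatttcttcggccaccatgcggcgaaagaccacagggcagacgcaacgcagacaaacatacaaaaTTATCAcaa
nearest to *T04C4.3*, chrIV:2219601-2219751, + strand: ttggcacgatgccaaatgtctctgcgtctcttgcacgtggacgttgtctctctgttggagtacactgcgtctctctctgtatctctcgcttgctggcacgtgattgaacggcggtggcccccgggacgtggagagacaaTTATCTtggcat
exon of *dos-3*, chrIII:835922-836072, + strand: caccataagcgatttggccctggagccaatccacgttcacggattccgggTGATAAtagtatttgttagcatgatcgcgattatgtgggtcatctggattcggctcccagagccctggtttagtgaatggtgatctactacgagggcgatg
Each of these windows had a single site. In the *rpl-7A* window it lay 3.5 bp from the summit, and in the windows nearest to *F58D12.3* and *T04C4.3* it lay 69.5 and 66.5 bp away, close to the edge of the search.

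The height of a peak is the authors' value, on a scale that is not stated, and it was compared only within a list. The strongest region with a site, chrIV:4725503-4725710, lay at an annotated non-coding RNA gene and had a signal of 429, its height being 224 in replicate 1 and 218 in replicate 2. The second, chrIV:4390588-4390717, lay 55 bp upstream of *rpl-7A*, a gene for a large-subunit ribosomal protein, and 199 bp upstream of *set-21*. It had a signal of 247, its height being 93.9 in replicate 1 and 148 in replicate 2. The third, chrX:6296541-6296624, lay in an intron of *mom-1*, which encodes a protein needed to secrete Wnt signals, and had a signal of 237, with heights of 95.8 and 141 in replicates 1 and 2. Signal fell off quickly after these: the region nearest to *F58D12.3* had 206, that nearest to *T04C4.3* 159 and that in an exon of *dos-3* 153. As listed, the heights of the first region were close, and those of the regions ranked 2 to 5 were larger in replicate 2. The lists differ in level, with median heights of 33.3 in replicate 1 and 28.8 in replicate 2 over regions with a site. Equal heights in both lists are therefore not taken as equal binding.

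**Figure D1:**
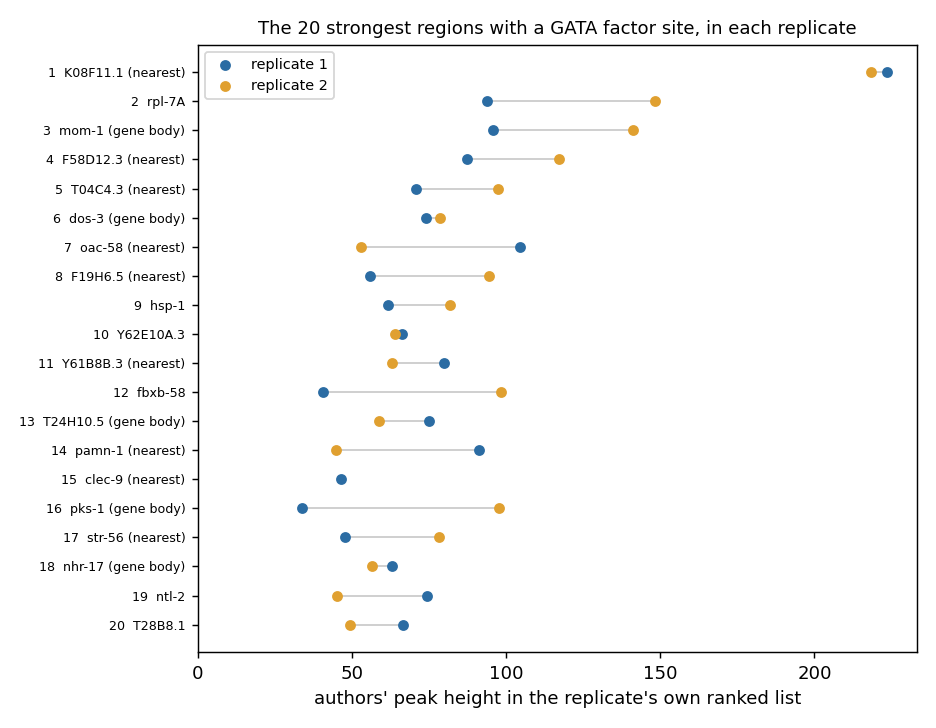
Heights of the 20 strongest regions with a site in each replicate's own ranked list (x axis, authors' peak height), with rank and target, host or nearest gene on the y axis; points are replicates 1 and 2 and grey lines join them. The top region stands at 224 and 218, apart from the others, and the region nearest to *clec-9* has a point for replicate 1 only.

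The longest run of letters shared by the windows of the 2 strongest regions, on either strand, was aacgttgaatactcagt, of 17 letters, chosen after the windows were seen. At *K08F11.1* it lies apart from the site, and at *rpl-7A*, where it reads on the other strand, the site adjoins it. The genome held 11 copies, of which 5 lay in region windows. Of these 5 regions, 2 had a GATA site and 3 had none, and all 5 were in the thresholded series list, the stricter list of peaks that the authors deposited for both replicates, which held 25.2% of all regions. The choice of the run from the 2 strongest regions fixed 2 of these 5. The signals of the 5 regions ranged from 72.1 to 429, and that of the strongest without a site was 324, with heights of 155 and 165 in replicates 1 and 2.

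Sites were rarer at the summits than beside them, which was not tested because the rule used the sites. Of the 2717 regions, 17.8% had a site in the window of 75 bp to either side of the summit (exact Clopper-Pearson 95% interval 16.36 to 19.3, which covers the number of regions only). Windows of the same length centred 600 bp from the summits had one in 26.9% (1409 of 5239, 25.7 to 28.1), and windows tiled over the genome in 28.3%. The density of sites in all regions together was 1.29 per kb within 75 bp of the summit and 2.20 per kb at 100 to 500 bp. G and C made up a mean of 47.1% of the letters at the summits and 37.7% at 100 to 500 bp, and the site is mostly A and T. Whether G+C content accounts for the fewer sites was not tested.

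**Figure D2:**
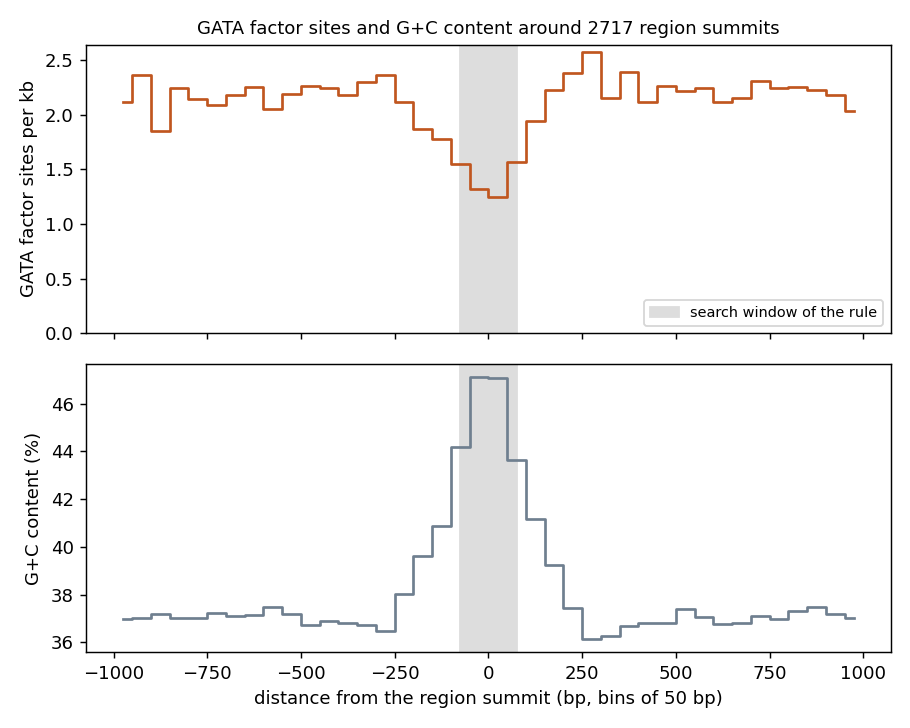
GATA factor sites per kb (top) and G+C content in percent (bottom) against the distance from the summit in bins of 50 bp, over all 2717 regions; the grey band is the searched window. Sites are least dense, and G+C content highest, in the bins at the summit.

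With base composition more alike the difference was smaller. When the regions were split into 3 classes of equal rank by G+C content, 23.2% of the lowest class had a site (20.5 to 26.0), against 29.6% of flanking windows and 30.2% of genome windows in the same range of G+C content. The genome windows of that range were still poorer in G and C, with a median of 33.8% against 39.1% in the regions. In the middle class 16.7% of regions had a site (14.3 to 19.2), against 18.9% of flanking and 20.3% of genome windows. In the highest class the shares were 13.0% of regions (10.8 to 15.4), 14.5% of 332 flanking windows (10.9 to 18.7) and 12.5% of genome windows. The interval of the regions held the shares of both kinds of window. That is a description and does not show that the shares are equal.

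Regions with the highest scores had a site less often. A site was present at 52 of 456 regions with the top score of 1000 (11.4%, 8.64 to 14.7), at 59 of 328 with scores of 830 to 999 (17.99%) and at 372 of 1933 with scores of 540 to 829 (19.2%). The median G+C content of these groups was 46.36%, 47.68% and 45.7%, in the same order. It was 44.7% in the 100 strongest of all regions and 46.36% in all regions. The part of G+C content in these shares was not tested. Among the 20 strongest of all regions 1 had a site, among the 100 strongest 5, and among the 500 strongest 59, or 11.8%. Regions of score 830 or more that the thresholded series list lacks made up 14 of these 20, 32 of these 100 and 82 of these 500. Without such regions, an alternative chosen after seeing the data, a site was present at 1 of the 20 strongest, 13 of the 100 strongest and 64 of the 500 strongest (12.8%), and at 45 of 371 regions with a score of 1000 (12.13%, 8.99 to 15.9). The score was used to choose the regions, and the steps within it are given without a test.

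**Figure D3:**
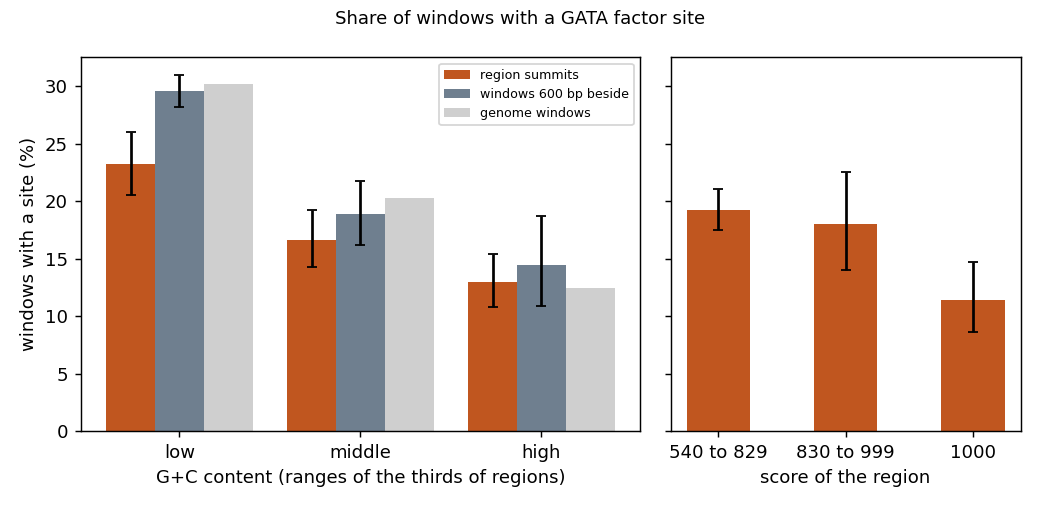
Share of windows with a site, in percent. Left, region summits, windows 600 bp beside them and genome windows, by G+C content; right, regions by score. Bars have exact 95% intervals except the genome windows. The region bar is the lowest of the low and middle groups, and regions of score 1000 have 11.4% against 19.2% at 540 to 829.

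Most regions had a single site. Of the 483 regions, 425 had 1, 51 had 2 and 7 had 3, so that 58 (12.01%, 9.25 to 15.3) had more than 1. The 58 regions gave 65 neighbouring pairs of sites, 42 on the same strand and 23 on opposite strands. The distance between neighbours ranged from 4 to 126 bp with a median of 36 bp, and 2 pairs overlapped.

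Of the 7 regions with 3 sites, 3 are shown to compare how multiple sites were arranged.
nearest to *clec-9*, chrV:16708647-16708797, + strand: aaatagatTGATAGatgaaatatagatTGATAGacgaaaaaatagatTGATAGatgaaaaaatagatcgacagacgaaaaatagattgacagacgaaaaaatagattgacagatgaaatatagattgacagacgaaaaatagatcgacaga
nearest to *frpr-8*, chrX:8695767-8695917, + strand: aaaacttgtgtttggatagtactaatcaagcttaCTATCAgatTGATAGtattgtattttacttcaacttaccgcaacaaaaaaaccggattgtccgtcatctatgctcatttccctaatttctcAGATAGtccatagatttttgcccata
*Y46G5A.36*, chrII:12823636-12823786, + strand: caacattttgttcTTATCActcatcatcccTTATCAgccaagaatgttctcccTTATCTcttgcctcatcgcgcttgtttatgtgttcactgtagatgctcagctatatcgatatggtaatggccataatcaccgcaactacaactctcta
The sites nearest to *clec-9* repeat within a tandem array, and 92.1% of the window is masked as repeat in the genome. That region had a signal of 133 and a height of 46.6 in replicate 1, no overlapping peak in the ranked list of replicate 2, and a score of 760. The region nearest to *frpr-8*, a gene for a predicted peptide receptor, had 2 sites on opposite strands with their centres 9 bp apart and another beyond the summit, with a signal of 64.6. The region 32 bp from the start of *Y46G5A.36* had all 3 sites on the same side of the summit and a signal of 56.7. The other 4 regions with 3 sites, with *cyn-7*, *Y119D3B.21*, *sec-8* and *F33E11.2* as target, host or nearest gene, had signals of 53.2 to 62.6. Of the 7 regions, 0 were in the thresholded series list, which held 25.2% of all regions and 21.5% of those with a site.

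Within the searched window the sites were not gathered at the summit. Of the 548 sites, 173 (31.6%, 27.7 to 35.6) were centred within 25 bp of it, 176 (32.1%) at 25 to 50 bp and 199 (36.3%, 32.3 to 40.5) at 50 to 75 bp. The positions a whole site can take split as 34.25%, 34.25% and 31.5%. The nearest site lay at a median of 36.5 bp (32.5 to 41.5). Sites read 260 times on the + strand and 288 times on the - strand, and lay 276 times to the left and 272 times to the right of the summit. Median signals were close to each other at all distances: the median was 62.1 for the 170 regions with a site within 25 bp, 60.4 for the 150 at 25 to 50 bp, 60.8 for the 163 beyond, and 61.7 for 157 regions whose nearest site lay just outside the search, up to 100 bp away. Beyond the window, at 100 to 500 bp, regions with a site had 2.57 sites per kb and regions without one had 2.12, at mean G+C contents of 37.6% and 37.7%.

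With windows of all base compositions together, the forms of the site were not equally rare. TGATAA, the form that intestinal GATA factors are best known to bind, made up 36.9% of the 548 sites in the regions, against 43.5% of sites in the flanking windows and 44.3% of those in the genome. AGATAG made up 23.9% (20.4 to 27.7) in the regions, against 13.5% in the flanks and 11.6% in the genome. Counted over windows, TGATAA was in 6.88% of summit windows and 12.8% of flanking ones, AGATAA in 4.01% and 7.998%, and TGATAG in 3.68% and 5.36%. AGATAG was in 4.64% of summit windows (3.88 to 5.50), against 4.18% of flanking windows (3.65 to 4.76) and 3.85% of genome windows. At the score of 1000, AGATAG and TGATAA were in 4.17% of regions each, and AGATAA and TGATAG in 1.75% each. The forms differ in G+C content. By class of G+C content, TGATAA was in 11.3% of regions (9.38 to 13.5) and 15.1% of genome windows in the lowest. In the middle it was in 6.42% (4.92 to 8.20) and 7.63%, and in the highest in 2.46% (1.53 to 3.73) and 3.58%. AGATAG was in 4.66% (3.41 to 6.21) and 3.84% in the lowest, and in 3.81% (2.67 to 5.26) and 4.24% in the middle. In the highest it was in 5.50% (4.07 to 7.25) and 3.49%.

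The surroundings of AGATAG were set beside those of the other forms, without a test. GAGAGA, searched as these letters on both strands, was present in 30.2% of the 126 windows with AGATAG (22.3 to 39.0), against 12% to 15.6% of windows with the other forms. It was in 18.2% of all region windows with a site and 16.3% of those without. The share was 7.56% in 66408 genome windows, which were not chosen for AGATAG. The run shared letters with the site in 10 of the 38 windows with AGATAG and GAGAGA and in 7 of the 17 with AGATAA and GAGAGA. For the other 2 forms it was 0, which the letters fix in advance for TGATAA, as it cannot share any with the run. TGATAG can share only its last G. Of the regions with AGATAG 15.1% lay in exons, against 27.5% to 39.0% of those with the other forms, and their median G+C content of 47.7% was the highest of the 4 forms. These forms were compared after their values were seen, and a region with sites of 2 forms counts in both.

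Promoters, the windows of protein-coding transcript starts that reach 1000 bp up and 200 bp down, held 146 of the 483 regions with a site (30.2%) and 33.4% of the 2234 without one. Exons held 134 (27.7%, 23.8 to 32.0) of those with a site and 483 (21.6%, 19.9 to 23.4) of those without, introns 17.4% and 18.5%, and intergenic sequence 19.3% and 21.1%. Of the 6 location shares tested (Fisher's exact test, two-sided, Benjamini-Hochberg adjustment), only that of exons passed. Regions with a site had 6.12 percentage points more (Newcombe interval 1.93 to 10.6, Fisher's exact test, adjusted p = 0.0243). Regions are not replicates of a condition, and the p covers their number only.

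The call for exons was lost in 10 of 14 other settings, and the difference was 5 points or more in 7 of the 14. It kept its call with sites within 100 bp (5.45 points), with the form ending in A (8.23), without merging (6.12) and without regions at small RNA genes (6.17), with adjusted p from 0.0131 to 0.046 in Fisher's exact test. The difference was 3.56 points at scores of 830 or more (Fisher's exact test, adjusted p = 0.808), -1.10 points at a score of 1000, 1.55 to 2.88 points with the thresholded list of a single replicate, and 3.497 points for sites within 50 bp (adjusted p = 0.514). Within the classes of G+C content, exons held 26.9% of regions with a site and 19.9% of those without in the lowest class, 32.7% and 22.6% in the middle one, and 22.5% and 22.3% in the highest. Of the 134 exon regions, 117 had a site inside an exon. The strongest lay in exons of *dos-3*, which encodes a Notch co-ligand (signal 153), and *pks-1*, a polyketide synthase gene (132, with heights of 33.7 and 97.8 in replicates 1 and 2). Next in signal came those of *F57G12.1* (83.1), *cgh-1*, which encodes an RNA helicase of the germ line (82.9), and *zyg-11*, which encodes a subunit of a ubiquitin ligase (82.3), named for their rank among exon regions.

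The other shares did not pass the test. Promoters differed by -3.17 points (-7.56 to 1.49, Fisher's exact test, adjusted p = 0.489), introns by -1.10 (-4.63 to 2.86, adjusted p = 0.604) and intergenic sequence by -1.83 (-5.53 to 2.27, adjusted p = 0.551). On the X chromosome lay 19.3% of regions with a site and 21.8% of those without, a difference of -2.5 points (-6.21 to 1.61, Fisher's exact test, adjusted p = 0.489).

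**Figure D4:**
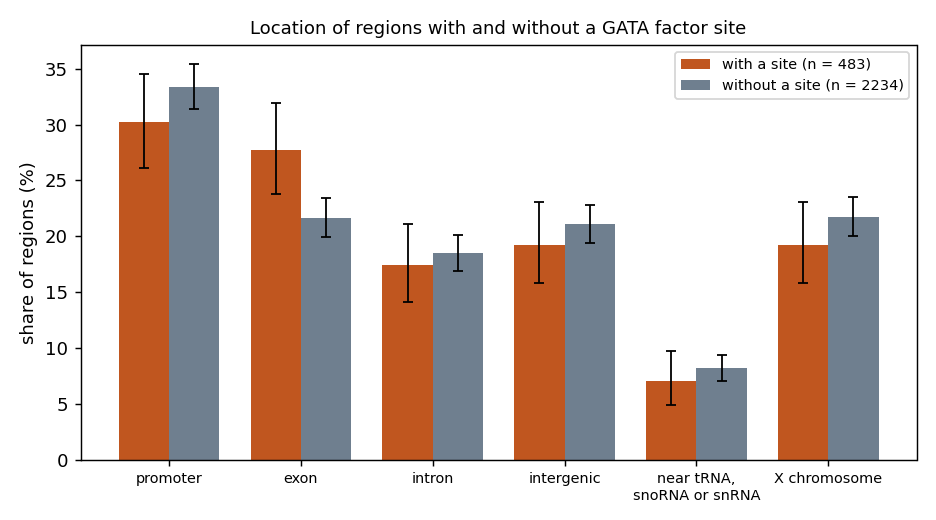
Share of regions (y axis, percent) with a site (left bars, n = 483) and without (right bars, n = 2234) in each location, with exact 95% intervals; the last 2 groups can overlap the others. Exons are the pair that passed the test, at 27.7% and 21.6%.

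A tRNA, snoRNA or snRNA gene lay within 150 bp of the summit at 7.04% of regions with a site and 8.19% of those without (difference -1.15 points, -3.45 to 1.69, Fisher's exact test, adjusted p = 0.551). tRNA genes were near 24 regions with a site (4.97%) and 109 without (4.88%), snoRNA genes near 8 and 51, and snRNA genes near 2 and 23. The 24 regions at tRNA genes had signals of 47.9 to 122, with a median of 63.1.

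At tRNA genes the site was in part a piece of the gene itself. In 9 of the 24 regions a site lay inside the annotated tRNA gene, and the same 9 regions shared a run of 12 letters with the site in it, agtggTTATCAc. This run was chosen after the windows were seen, as the run of that length with a site found in the most windows. The genome held 41 copies of the run. Of all region windows 9 held it, and all 9 counted as regions with a site because the run holds one. Of the 612 annotated tRNA genes, 33 (5.39%) hold a site anywhere. The strongest of these regions, at the tRNA gene WBGene00014478 (chrX:13307034-13307106, + strand), is shown with the site in capitals, which lies near the 5' end of the gene.
tRNA gene WBGene00014478, chrX:13307010-13307160, + strand: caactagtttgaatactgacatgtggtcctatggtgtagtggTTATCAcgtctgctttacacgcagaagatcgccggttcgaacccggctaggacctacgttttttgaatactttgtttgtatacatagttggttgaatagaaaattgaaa
Its peak, chrX:13306947-13307222, had a signal of 111, with heights of 69.8 in replicate 1 and 40.1 in replicate 2. tRNA genes are transcribed by RNA polymerase III from control sequences inside the gene, and copies of a tRNA gene are near-identical, so that reads of one copy may be placed at another. Over all 483 regions, 30 (6.21%) shared the 16 letters around a site with another region, in 10 groups, and 9 of these 30 were at tRNA genes while 10 had a window mostly masked as repeat.

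Regions with a site were slightly lower peaks than those without. Their median signal was 61.0 (range 16.6 to 429), against 63.4 (range 7.52 to 3122, or up to 544 among those in the thresholded series list) in regions without a site. In replicate 1 the median height was 33.3 (32.7 to 34.1) in regions with a site and 34.7 (34.3 to 35.1) in regions without, and in replicate 2 it was 28.8 (28.0 to 30.1) and 31.0 (30.5 to 31.5). The ratios of the medians were 0.959 and 0.931. The quartiles overlapped, at 28.4 to 39.6 with a site and 28.8 to 41.9 without in replicate 1. In replicate 2 they were 24.0 to 35.3 and 25.4 to 38.4. The highest values were 224 with a site and 1822 without in replicate 1, and 218 and 1481 in replicate 2. Across the 453 regions with a site that had a height in both replicates, Spearman's rho between the replicates was -0.07 (Pearson's r 0.23 after taking log2), against rho 0.15 (r 0.52) across 2086 regions without a site. These are descriptions over regions of the same 2 libraries, chosen by score. An overlapping peak was lacking in the ranked list of replicate 1 for 13 regions with a site and 53 without, and in that of replicate 2 for 18 and 98.

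**Figure D5:**
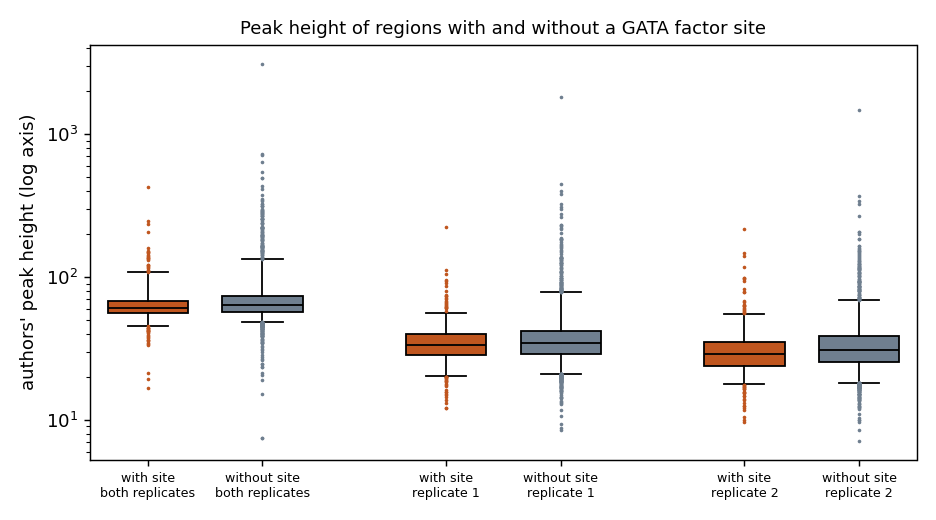
Authors' peak height (log y axis) of regions with and without a site, in the list of both replicates and in each replicate; boxes are quartiles with the median, whiskers span the 5th to 95th percentiles and points lie beyond. The boxes overlap in each pair, and the highest peaks are in regions without a site.

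Few regions were in the thresholded lists. In the list of both replicates together were 104 regions with a site (21.5%, 17.95 to 25.5) and 580 without (26.0%), where 25.2% of all regions were. In the lists of both single replicates were 12 with a site (2.48%, 1.29 to 4.30) and 113 without (5.06%, 4.19 to 6.05), where 4.6% of all regions were, a difference of -2.57 points (-4.02 to -0.583). These 12 ranked within the 25 strongest regions with a site, with signals of 109 to 429 and heights of 41.1 to 224 in replicate 1 and 49.2 to 218 in replicate 2. Besides the 6 strongest they were those at *hsp-1*, *T28B8.1* and *W06H8.6* promoters and in introns of *T24H10.5*, *nhr-17* and *K08C7.1*. The one in *nhr-17* was near a tRNA gene. Of the 111 regions with a site at scores of 830 or more, 7 (6.31%) were absent from the thresholded series list, against 93 of 673 (13.8%) without a site. The region nearest to *oac-58*, ranked 7 with a signal of 150.7, was among the 7. More than 50% of the window was masked as repeat in 9.52% of regions with a site and 15.2% of those without.

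The 146 promoter regions with a site had 168 target genes, 0.841% of the protein-coding genes, against 848 (4.25%) for regions without a site, and 9 genes were targets of both. The summit lay at a median of 241 bp upstream of the start in regions with a site and 244.5 bp in those without. Of 166 sites in these promoters, 78 (46.99%, 39.2 to 54.9) read on the strand of the nearest target. Among the named targets, 2 windows are shown, those of *hsp-1* and *lin-46*.
*hsp-1*, chrIV:17278488-17278638, + strand: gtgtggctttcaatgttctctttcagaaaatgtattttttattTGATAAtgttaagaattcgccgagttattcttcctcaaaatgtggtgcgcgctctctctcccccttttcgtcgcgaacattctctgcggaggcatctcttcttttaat
*lin-46* with *R186.8* and *R186.3*, chrV:12967979-12968129, + strand: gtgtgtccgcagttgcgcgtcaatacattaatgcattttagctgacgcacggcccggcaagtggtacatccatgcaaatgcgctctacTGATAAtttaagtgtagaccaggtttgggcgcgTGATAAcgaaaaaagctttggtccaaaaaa
*hsp-1*, a constitutively expressed Hsp70 chaperone gene, had its summit 396 bp upstream, with a signal of 148 and heights of 61.6 and 81.9 in replicates 1 and 2. *lin-46*, a scaffold-like gene of the heterochronic pathway that times seam cell divisions, had its summit 801 bp upstream, with a signal of 84.7 and heights of 34.1 and 48.0. Both of its sites were TGATAA, 15.5 and 48.5 bp from the summit, and *R186.8*, whose start lay 72 bp away, was the nearer target. Of these genes *hsp-1* was in both single replicate lists, and *lin-46* was in neither.

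Genes of the tissues known for GATA factors were counted beside all coding genes, of which 0.841% were targets of regions with a site and 4.25% of regions without. Of 13 genes for GATA factors and cofactors, 0 were targets of regions with a site and 0 of regions without. Both regions with *egl-18* itself or *elt-6* as host or nearest gene, with signals of 81.1 and 62.9, had no site in the window. Of 38 genes for seam cells and asymmetric Wnt signalling, 1 (2.63%) was a target of regions with a site, *lin-18*, a Ryk-type Wnt receptor gene (signal 56.0, 378 bp upstream), and 1 of regions without. Of 34 epidermal and molting genes, 0 and 2 were targets. Of 50 intestinal genes, 2 (4.0%) were targets of regions with a site and 0 of regions without, and with counts of 0 to 2 these shares were not set apart from that of all genes. These were *vit-2*, a yolk protein gene (signal 73.6), and *asp-5*, an aspartyl protease gene (60.5), with summits 157 and 119 bp downstream of the start. *vit-2* belongs to a family of yolk protein genes with related sequences. Whether reads were shared among them was not checked.

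Among 15 heterochronic genes, *lin-46* and the Argonaute gene *alg-1* (signal 54.8) were targets of regions with a site, and 4 were targets of regions without. These are 13.3% and 26.7%, where 0.841% and 4.25% of all coding genes were targets, which was not tested. The microRNA names *lin-4*, *let-7*, *mir-48*, *mir-84* and *mir-241* of this list had no match. Of 25 genes of vulva and egg laying, 1 and 3 were targets, the first being *lin-15B*, a repressor of germline genes in the soma (signal 54.7). Of 156 collagen genes, 3 and 3 were targets: *col-174* (66.8), *col-87* (59.5) and *col-73* (57.3) had a site, 1.5, 0.5 and 30.5 bp from the summit. Of the regions named for these lists of seam cell, intestinal, heterochronic, vulval and collagen genes, 9 in all, only that of *lin-46* was in the thresholded series list, where 21.5% of regions with a site were.

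The 7 other lists each had more targets among regions without a site, which are also the more numerous. Of 82 ribosomal protein genes, 2 were targets of regions with a site, *rpl-7A* and *rps-15* (signal 66.4, with heights of 15.2 and 52 in replicates 1 and 2), and 16 of regions without, or 2.44% and 19.5%, where 0.841% and 4.25% of all coding genes were targets. Of 29 heat shock and stress genes 1 and 4 were targets. Of 269 nuclear hormone receptor genes 2 and 13 were, those with a site being *nhr-37* (63.3) and *nhr-6* (57.2). Muscle genes had 2 and 4 of 28, with *act-1* (71.9), an actin gene of a near-identical family, and *unc-89*, which encodes a giant protein of the sarcomere (55.3). Neuronal genes had 1 and 2 of 27, with *unc-31* (36.02), which acts in release of dense-core vesicles and whose summit also lay at an snRNA gene. Germline genes had 0 and 2 of 28, and homeobox and helix-loop-helix genes 1 and 5 of 88, with *hlh-11* (45.4), for which replicate 2 had no overlapping peak.

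Other short sequences were counted in windows with and without a site, without a test. CGCGCA was present in 6.83% of windows with a site (4.75 to 9.46) and 8.15% of those without (7.05 to 9.36), against 2.02% of 66408 genome windows. For the GATA site itself, 664054 genome windows were searched. ACGCAG was present in 9.94% and 9.22%, against 2.85% in the genome, and GAGAGA in 18.2% and 16.3%, against 7.56%. TATAAA was in 8.70% and 6.67% of windows, against 16.36% in the genome, and CACGTG in 1.86% and 3.54%, against 2.51%. TTTCAG was in 17.8% and 15.3%, against 28.5%, TGTCAA in 6.83% and 7.12%, against 11.1%, and TTCNNGAA (N any letter) in 7.87% and 7.70%, against 10.8%. GTAAACA was in 2.07% and 1.835%, against 1.79%, and TGACTCA in 1.035% and 1.03%, against 1.29%. All were searched on both strands. The genome windows were not matched for G+C content, which was 35.4% over the chromosomes and a mean of 47.1% at the summits.

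Signals on both sides of the score limit overlapped. The 3 regions with a site just inside it, at a score of 540, had signals of 57.3, 54.7 and 54.4, and the 3 just outside, at scores of 539, 539 and 538, had signals of 62.1, 35.2 and 61.0. Inside were regions in an intron of *C54G6.3*, nearest to *mam-1* and in the promoter of *clec-12*, and outside were regions in exons of *srbc-63* and *smk-1* and nearest to *egl-4*.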

How the data were processed

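The data were peak lists on ce11 from 2 biological replicates, per the file headers and deposited descriptions. The aligner and the peak caller were not given in the sources used here. Peak lists hold no read counts, so that depth is unknown. The score, as deposited, is -125 times log base 2 of the global IDR, capped at 1000. The signal deposited by the authors is the peak height on a scale that is not stated. The −log10 column deposited by the authors holds the global IDR.

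Series-level lists were derived from both replicates, and each replicate's lists from it alone, per the deposited descriptions; a region's height in a replicate is that of the highest overlapping peak of its ranked list. Overlap means at least 1 bp. Intervals of 95% are exact Clopper-Pearson ones for shares and Newcombe's, from Wilson limits, for differences of shares. For medians they come from the ranked values. Genes came from Ensembl release 115 and sequence from RefSeq WBcel235. Summits outside promoters went first to exons, then introns, then the 150 bp around non-coding RNA genes, and the rest were intergenic. A target has a summit in its promoter window.

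The members, gene lists, tests and alternatives were chosen with earlier results of these data known. Of the names in the 14 lists, 7 had no match. Named genes were targets, hosts or nearest genes of the 20 strongest regions with a site, of those with 3 sites, of those in both replicates' lists and of those at the score limit, and list targets, with exceptions stated. Site search was tested on simulated sequences, and merging on a small set of made-up intervals. Tools were numpy 2.4.6 and pandas 2.3.3 for tables, scipy 1.17.1 for tests and matplotlib 3.10.9 for plots, in Python 3.11.15.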

Additional observations from a re-analysis of the deposited data

How the results depend on the processing

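Of 186 values under other settings, 120 kept their direction, side of the threshold and approximate size. Scores of 830 or more left 111 regions with a site (14.2%; 9.01% of them with more than 1), an exon difference of 3.56 points, a ratio of median signals of 0.935, a difference of -5.98 points in the lists of both replicates and 49 targets. At 1000 these were 52 regions (11.4%), -1.10, 1.03, -4.89 and 22 targets, with introns at 1.52, intergenic sequence at 0.209 and small RNA genes at 0.229 points (Fisher's exact test, adjusted p = 1.0 for each share). Sites within 50 bp gave 310 regions (11.4%), 8.39% with more than 1, a median distance of 22.5 bp, 3.497 points for exons and 0.965 for intergenic sequence, and within 100 bp 23.6%, 16.09% and 50 bp. The form ending in A gave 286 regions (10.5%), 8.74% with more than 1, a median distance of 42.5 bp, 0.843 points at small RNA genes and 104 targets.

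The thresholded series list gave 104 regions (15.2%), 7.69% with more than 1, 3.73 points for exons, 4.01 for intergenic sequence, -7.94 for the lists of both replicates and 48 targets. The list that compared replicate with replicate gave 2.74 points for exons, 0.327 for intergenic sequence and 0.303 for small RNA genes. Promoters of 500 bp upstream to 100 bp downstream gave 5.75 points for exons (Fisher's exact test, adjusted p = 0.0632) and 103 targets. Of alternatives chosen after seeing the data, leaving out peaks of score 830 or more absent from the thresholded list gave 5.83 points for exons (Fisher's exact test, adjusted p = 0.0502) and 0.248 for intergenic sequence, and leaving out windows mostly masked as repeat gave 5.00 (adjusted p = 0.102) and 1.32.

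With a single replicate's thresholded list (without replicate 1 or without replicate 2), the number of regions with a site was 20 to 29 and their share 10.3% to 12.7%, with 0.0% to 13.8% holding more than 1 site, a median distance of 30.5 to 37.5 bp and 10 to 18 targets. The differences were -0.97 to 3.05 points for promoters, 1.55 to 2.88 for exons, 1.66 to 11.0 for introns, -11.8 to 4.04 for intergenic sequence, -17.0 to -14.2 for small RNA genes, -13.2 to -1.99 for X and -17.2 to -16.4 for the other replicate's list. The ratio of median signals was 0.901 to 0.998 and the difference in median G+C content -3.97 to 3.64 points. Exon regions with a site remained above those without in every setting run but the score of 1000, and the call was lost in 10 of 14. The causes were not tested.

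No paired analysis was possible because there is 1 group. The depth of the libraries is unknown, no control was analysed, and 2 replicates limit every statement on heights. The intervals cover numbers of regions, and neighbouring or repeated sequences are not independent.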
